A study of Mus musculus with 2 samples.

Results

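Mir151, Mir28a and Mir708 are the 3 members of a group of related intronic microRNAs, taken by their GENCODE M21 gene symbols out of 2202 annotated microRNA genes. All 3 matched 1 row each in the deposited files, and all 3 had at least 10 counts in both libraries. The libraries are microRNA-seq of adrenal glands from 2 male B6CASTF1/J mice aged 36 days, which carry 1 C57BL/6J and 1 CAST/EiJ genome. Each mouse gave 1 library, numbered here by the biological replicate number in the labels, which list 1 donor record for both animals. There is 1 group and no second condition, so levels are described, and a test of one library against the other speaks of this pair of libraries alone. Whether CAST/EiJ alleles changed how reads mapped to mm10 was not tested.

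MicroRNAs are cut from hairpin transcripts into short mature strands that guide Argonaute proteins to messenger RNAs, chiefly by pairing through the seed, bases 2 to 8 of the mature strand. The 3 genes lie in introns of host genes, and such hairpins can be released from the transcript of the host. Their hairpins are related in sequence, and those of miR-28 and miR-151 are known to descend from an ancient family of LINE repeats. miR-151 is known for acting beside its host product, focal adhesion kinase, in cell migration, and its precursor is a known substrate of adenosine-to-inosine editing. miR-28 is known from germinal centre B cells, where it restrains proliferation, and miR-708 from the response to endoplasmic reticulum stress, in which the factor CHOP raises it together with its host.

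The mature strands below are shown because the shared seed is what joins Mir28a to Mir708. They were read from RefSeq (build GRCm38.p6), in which 2 of the 3 members were matched. Mir151 had no entry there, so its seed was not compared. Each is written 5′ to 3′ with bases 2 to 8 in capitals.
miR-28a-5p: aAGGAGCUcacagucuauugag
miR-708-5p: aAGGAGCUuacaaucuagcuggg
miR-28b: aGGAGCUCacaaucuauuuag
miR-28a-3p: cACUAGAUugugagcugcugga
miR-708-3p: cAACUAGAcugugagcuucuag

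The strands miR-28a-5p and miR-708-5p had the same seed, AGGAGCU, and these 2 were the only entries with it among 1738 mature strands in the table (0.115%). Over the 22 bases compared from the 5′ end they were identical at 16 (72.7%). Counted from the 5′ end of miR-28a-5p, the substitutions were C9U, G13A, U18G, U19C, G20U and A21G, all outside the seed. The 3p strands were identical at 17 of 21 bases (81.0%) once miR-708-3p was shifted by 1 base. Counted from the 5′ end of miR-28a-3p, the substitutions were C1A, U8C, G17U and G20A, of which U8C lies in its seed. The shift also moves the window of bases 2 to 8. Their seeds thus differed, ACUAGAU and AACUAGA. miR-28b, from the separate gene Mir28b, matched miR-28a-5p at 19 of 21 bases (90.5%), with G13A and G20U. It begins 1 base later, which makes its seed GGAGCUC. No other entry of the table was identical to any of these 5 strands. The deposited counts refer to whole hairpin genes, so the share of each arm, and with it the amount of each seed, was not measured.

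In mm10, Mir151 (ENSMUSG00000065612.1) lies on chromosome 15 from 73254815 to 73254882 on the minus strand, within an intron of Ptk2, the gene of focal adhesion kinase. All 5 annotated Ptk2 transcripts that span it hold it in an intron. In the one with the most exons this is intron 23 of 33, with a length of 14556 bp, and the hairpin starts 2151 bp after the upstream exon. Mir28a (ENSMUSG00000065494.1) lies on chromosome 16 from 24827855 to 24827940 on the plus strand, within an intron of Lpp, which encodes a LIM-domain protein of focal adhesions. All 3 spanning Lpp transcripts place it in an intron, numbered 8 of 12 in the longest by exons, with a length of 82814 bp. Mir708 (ENSMUSG00000076143.1) lies on chromosome 7 from 96249424 to 96249532 on the plus strand, within an intron of Tenm4, which encodes a teneurin, a transmembrane protein of neural and other tissues. All 7 spanning transcripts hold it in an intron, which in the transcript with the most exons is intron 1 of 32, with a length of 183862 bp.

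**Figure D1:**
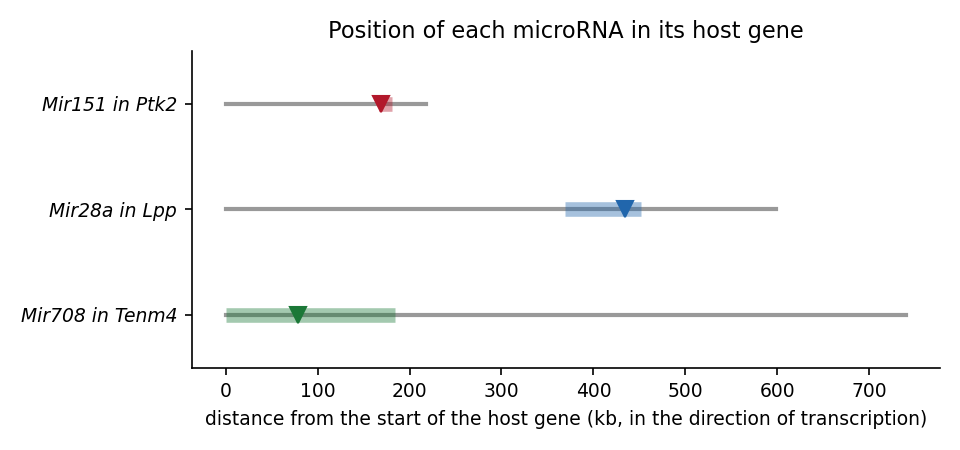
Position of each hairpin (triangle) in its host gene (grey line), drawn to scale in kb from the start of the host gene in the direction of transcription, with the intron that holds it as a coloured band. Mir151 and Mir28a sit at 77.2% and 72.5% of the length of their hosts and Mir708 at 10.6%.

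The hosts were long. Tenm4 spans 739848 bp, Lpp 599072 bp and Ptk2 218179 bp. The median host length was 78739 bp over the 113 microRNA genes in introns of protein-coding genes that had at least 10 counts in both libraries. This median takes each of the 94 hosts once per microRNA gene, members included. Only 4 of the 113 genes had a longer host than Mir708, 5 a longer one than Mir28a, and 23 a longer one than Mir151. The expression of the hosts themselves was not analysed here. No other microRNA gene was annotated within 10 kb of a member, and the single other one inside a host, Mir6394 in Tenm4, had 0 counts in both libraries. A count of 0 allows up to 3 counts, or 0.667 CPM in replicate 1 and 1.44 CPM in replicate 2, for counting error only.

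Mir151 was the highest of the members in both libraries, Mir28a followed, and Mir708 was the lowest. Levels are counts on the sense strand scaled to a total of 1000000 over all gene rows (CPM). Mir151 had 35670 counts in replicate 1 and 10533 in replicate 2, or 7936 and 5067 CPM, a mean of 6501 ± 2029 CPM (SD, n = 2). Mir28a had 12283 and 3758 counts, or 2733 and 1808 CPM, a mean of 2270 ± 654 CPM (SD, n = 2). Mir708 had 7546 and 1804 counts, or 1679 and 868 CPM, a mean of 1273 ± 573 CPM (SD, n = 2). The ranges of the 3 genes over the libraries did not overlap. The gap between Mir28a and Mir708 was narrow, with the lower value of Mir28a (1808 CPM) just above the higher value of Mir708 (1679 CPM). With 2 libraries a two-sided exact permutation test between genes has p = 0.33 as its smallest value, so the order of levels was set against the SDs only. The mean ± SD of Mir151 lay clear of the other members, while those of Mir28a and Mir708 overlapped.

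Over all 2202 genes, Mir151 ranked 31st by mean CPM, Mir28a 50th and Mir708 75th. Their ranks were 27, 44 and 55 in replicate 1 and 35, 64 and 94 in replicate 2, so all 3 stood lower in the second library. Mir151 took 0.794% of the gene counts of replicate 1 (exact Clopper-Pearson 95% interval 0.785 to 0.802) and 0.507% of those of replicate 2 (0.497 to 0.516). For Mir28a the shares were 0.273% (0.268 to 0.278) and 0.181% (0.175 to 0.187). Mir708 took 0.168% (0.164 to 0.172) and 0.0868% (0.0828 to 0.0909). These intervals cover counting error only, since copies made by PCR cannot be told from separate molecules, and they are far narrower than the gap between the libraries. Mature strands have like lengths, so CPM was not divided by hairpin length for the main order. Divided by the hairpin lengths of 68, 86 and 109 nt, the levels kept their order, at 117 and 74.5 CPM per nt for Mir151, 31.8 and 21.02 for Mir28a, and 15.4 and 7.96 for Mir708 in replicates 1 and 2.

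**Figure D2:**
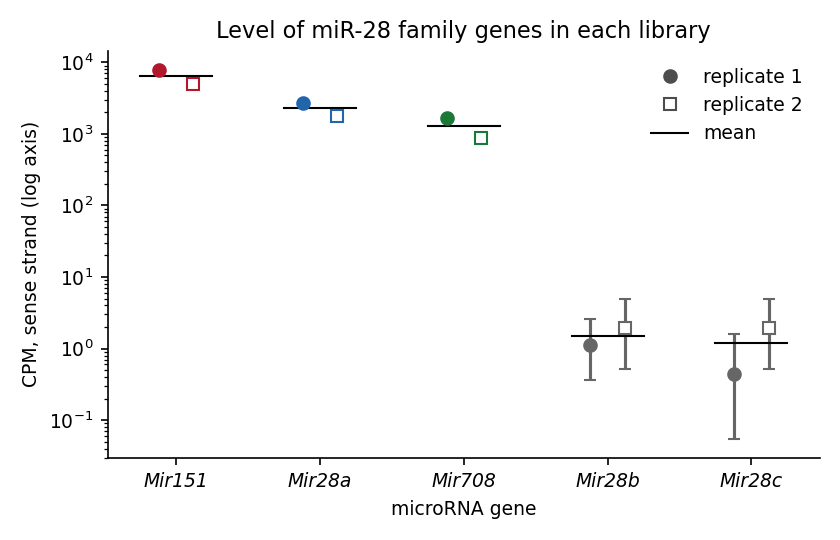
CPM on the sense strand (log axis) of 5 genes named for or related to miR-28, with replicate 1 as filled circles, replicate 2 as open squares, the mean as a line and exact 95% counting intervals as bars. The 3 members lie between 868 and 7936 CPM, and Mir28b and Mir28c below 2 CPM.

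The 2 further genes that carry the name miR-28 were close to the limit of detection. Mir28b (chromosome 8, 73016512 to 73016591, with no host gene on its strand) had 5 and 4 counts, or 1.11 and 1.92 CPM. Mir28c (chromosome 15, 53614205 to 53614279, in an intron of Samd12) had 2 and 4 counts, or 0.445 and 1.92 CPM. The ratio of replicate 2 to replicate 1 could not be settled at this depth for either, at 1.73 for Mir28b (95% counting interval 0.343 to 8.04) and 4.32 for Mir28c (0.620 to 47.8). Mir28a had 2457 and 940 times the counts of Mir28b in replicates 1 and 2. Nearly all counts under the name miR-28, which leave out reads that map to several places, thus came from the Lpp intron. Whether reads left out in this way lowered Mir28b or Mir28c was not tested.

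Together the 3 members took 1.23% of the gene counts of replicate 1, with an exact 95% interval of 1.22 to 1.25, and 0.774% of those of replicate 2, with 0.762 to 0.786. The mean share was 1.00% ± 0.326 (SD, n = 2). Mir151 made up 64.3% of that sum in replicate 1 (63.9 to 64.7) and 65.4% in replicate 2 (64.7 to 66.2). Mir28a made up 22.1% (21.8 to 22.5) and 23.3% (22.7 to 24.0), and Mir708 13.6% (13.3 to 13.9) and 11.2% (10.7 to 11.7). The portions moved less than the sum did, and that of Mir708 moved the most. The pair that shares a seed, Mir28a with Mir708, summed to 4411 and 2676 CPM, and Mir151 alone exceeded that sum 1.80-fold (1.77 to 1.83) and 1.89-fold (1.83 to 1.96).

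Ratios between members within a library do not depend on how libraries are scaled. Mir151 stood 2.90-fold above Mir28a in replicate 1, with an exact 95% interval of 2.85 to 2.96, and 2.80-fold in replicate 2, with 2.70 to 2.91. The log2 difference between these ratios, replicate 2 minus replicate 1, was -0.05 with a 95% counting interval of -0.11 to 0.01, which leaves a difference of either sign possible. Mir151 stood 4.73-fold above Mir708 in replicate 1 (4.61 to 4.85) and 5.84-fold in replicate 2 (5.55 to 6.14), a log2 difference of 0.30 (0.22 to 0.39). Mir28a stood 1.63-fold above Mir708 (1.58 to 1.68) and 2.08-fold (1.97 to 2.20), a log2 difference of 0.36 (0.26 to 0.45). Both ratios with Mir708 differed between the libraries beyond counting error, and the ratio of Mir151 to Mir28a did not. With 1 library from each mouse, no interval here covers the variation between animals.

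**Figure D3:**
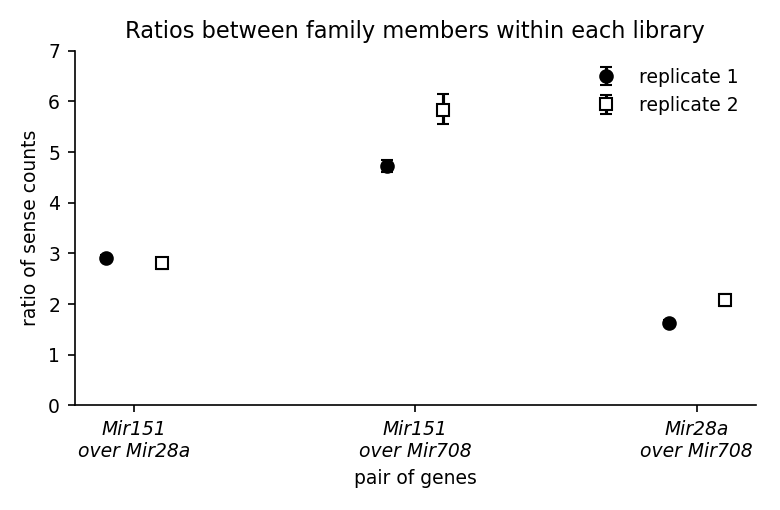
Ratio of sense counts between members of each pair, in replicate 1 (filled circles) and replicate 2 (open squares), with exact 95% counting intervals as bars. The ratio of Mir151 to Mir28a is 2.90 and 2.80, while both ratios over Mir708 are higher in replicate 2.

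All 3 members were higher in replicate 1. After TMM scaling, the log2 ratio of replicate 2 to replicate 1 was -0.83 for Mir151 (95% counting interval -0.86 to -0.80), or 1.78-fold more in replicate 1. For Mir28a it was -0.78 (-0.83 to -0.73), or 1.72-fold, and for Mir708 -1.14 (-1.21 to -1.06), or 2.20-fold. By an exact binomial test of the 2 counts, with Benjamini-Hochberg adjustment over 333 genes, 3 of 3 members differed between the libraries. The same test called 78.1% of all genes tested, 38.7% as higher in replicate 1 and 39.3% as higher in replicate 2, so being called sets no member apart. No error other than counting noise enters this test. The edgeR exact test, with a dispersion estimated from the same 2 libraries, called none of the 3 (adjusted p = 0.988 for each, unadjusted p of 0.457, 0.485 and 0.313 for Mir151, Mir28a and Mir708). It called 2 of 333 genes (0.601%), with 17 at an unadjusted p under 0.05, at a biological coefficient of variation of 52.7%. That dispersion was set by the difference between the libraries that the test then compared. A gene of typical difference could thus hardly be called, and no conclusion is drawn from the missing calls.

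Set against all genes tested, the differences of the members were moderate in size. Of the 333 ratios, 52 were lower than that of Mir151, 59 lower than that of Mir28a and 34 lower than that of Mir708, and the median of all was 0.01. A larger absolute log2 ratio was found for 121, 132 and 78 genes in the same order. Coefficients of variation over the 2 libraries were taken on CPM, without TMM scaling. They were 31.2% for Mir151, 28.8% for Mir28a and 45.0% for Mir708, beside a median of 30.9% over the tested genes. By this measure 164 genes varied more than Mir151, 180 more than Mir28a and 108 more than Mir708. Mir151 and Mir28a thus lay near the median gene in CPM, but above it in absolute log2 ratio after TMM. Mir708 lay above the median gene by both measures. With library size alone in place of TMM, which raised the median log2 ratio of all genes by 0.19, the ratios were -0.65, -0.60 and -0.95 for Mir151, Mir28a and Mir708, still higher in replicate 1.

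**Figure D4:**
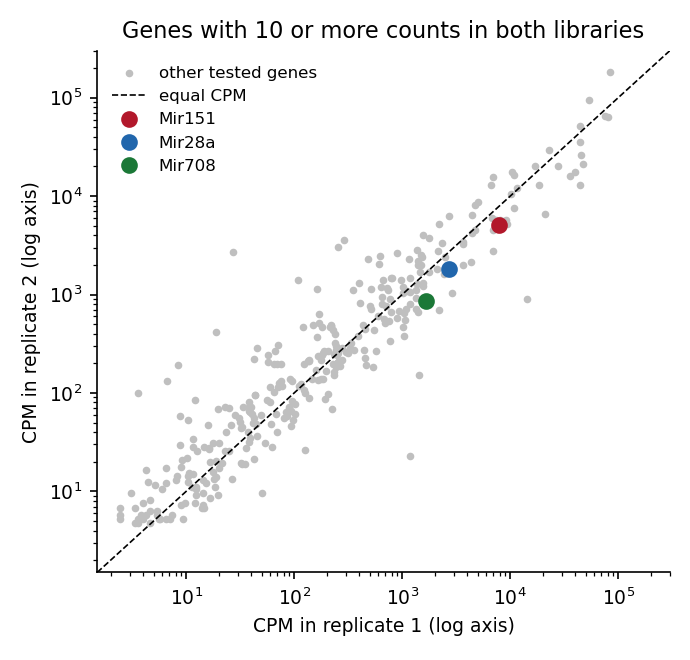
CPM in replicate 2 against replicate 1 (log axes) for the 333 genes tested, in grey, with the members in colour and equal CPM as a dashed line. All 3 members lie below the line, within the cloud of the other genes.

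The libraries differed in ways that bear on every level given here. Replicate 1 held 12289288 reads, of which 4494857 (36.6%) fell in microRNA genes on the sense strand, and replicate 2 held 10323816, of which 2078824 (20.1%) did. Reads mapping to several places, 29.8% and 21.5%, are outside the counts. Sums of marker microRNAs for several cell types also differed. These sums are of CPM without TMM scaling, while the calls were made after it. The 3 matched erythroid genes of 4 listed summed to 15841 and 1092 CPM in replicates 1 and 2, most of it Mir451a. Mir451a and Mir144 were called higher in replicate 1, and Mir486 was not called. The 10 neuronal genes summed to 969 and 395 CPM, most of it Mir137. Of these 10, 5 were at 0 in both libraries (Mir124a-1, Mir124a-2, Mir124a-3, Mir9-2 and Mir9-3). Any reads shared by gene copies map to several places and are left out, so a 0 for such genes does not show absence. The erythroid and neuronal sums were higher in replicate 1 like the members, and so were the smooth muscle and endothelial sums. The smooth muscle and pericyte pair summed to 46611 and 30221 CPM, but 1 of its genes was called toward each library. The endothelial pair stood at 74842 and 64797 CPM, with Mir126a called higher in replicate 1 and Mir126b not called. Other lists were higher in replicate 2, with the 5 epithelial genes at 64.7 and 3576 CPM and the 3 pancreas acinar genes at 0 and 326 CPM. The 3 brown adipose genes stood at 267 and 3066 CPM, most of it Mir193b, and the liver gene at 1383 and 2842 CPM. The 4 neuroendocrine genes summed to 48802 and 54157 CPM, most of it Mir375, called higher in replicate 2 at a log2 ratio of 0.04, while the other 3 were called higher in replicate 1. The 5 leukocyte genes summed to 3219 and 3899 CPM, with 3 called higher in replicate 1 and 2 in replicate 2. The 8 genes of skeletal and heart muscle summed to 4.67 and 10.1 CPM, with both Mir133a genes and both Mir1a genes at 0 throughout. Any reads shared by such gene copies are likewise left out, so this low sum does not show that muscle microRNAs were absent. The part of these differences in the levels of the members was not tested. In whole glands, fewer cells of a type and less RNA per cell cannot be told apart. No list here defines the adrenal cortex, so the labelled tissue was not checked for it.

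The members stood in the upper part of a list of 49 microRNA genes known to lie in host genes, of which 43 had 10 counts in both libraries. Ranked by mean CPM with those 43, Mir151 was 7th, Mir28a 11th and Mir708 14th of 44 in turn. The 3 highest of the list were Mir378a of Ppargc1b, at 74155 ± 28593 CPM (SD, n = 2), Mir126a of endothelial cells, at 69808 ± 7102 CPM, and Mir26b of Ctdsp1, at 28352 ± 21895 CPM. Next to Mir151 stood Mir191 at 6536 ± 1177 CPM and Mir744, in Map2k4, at 6454 ± 562 CPM. Next to Mir28a stood Mir328 at 2749 ± 1367 CPM and Mir361, in Chm, at 2015 ± 564 CPM. Next to Mir708 stood Mir107, in Pank1, at 1385 ± 1274 CPM and Mir425 at 1196 ± 305 CPM. GENCODE M21 places 41 of the 49 in an intron of a protein-coding gene, and the other 8, among them Mir191, Mir328 and Mir425, in an exon of some or all transcripts, in a noncoding host, or in no host on their strand.

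Of the 43 listed genes tested, 26 were higher in replicate 1, 14 in replicate 2 and 3 were not called, with a median log2 ratio of -0.39. Over all 333 genes these counts were 129, 131 and 73, and the median was 0.01. Of the 110 other genes annotated in introns of protein-coding hosts and tested, the test called 52 toward replicate 1 and 40 toward replicate 2, and the median was -0.16. The 2 lists overlap, since 35 of the 43 are among the 110. The medians of both lists lay between that of all genes and the 3 members, whose median was -0.83, and this order was not tested.

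**Figure D5:**
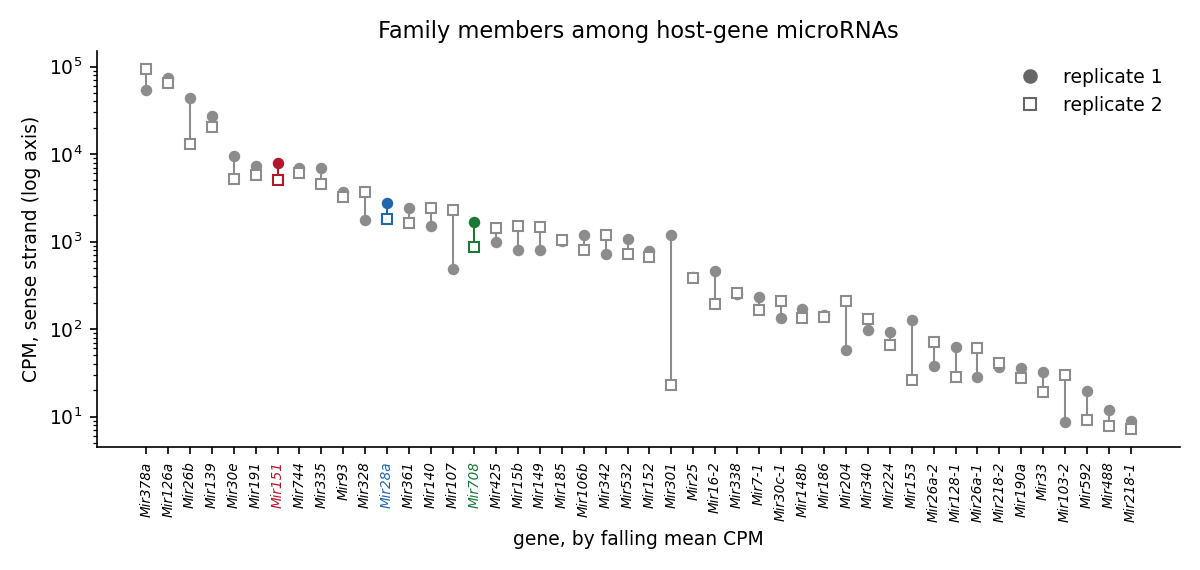
CPM on the sense strand (log axis) in replicate 1 (filled circles) and replicate 2 (open squares) for the 43 listed host-gene microRNAs with at least 10 counts in both libraries and the 3 members (coloured), by falling mean CPM. The members lie in the upper part of the order, each with replicate 1 above replicate 2.

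Genes with levels most like those of each member were found by the distance between log2(CPM + 1) values over the 2 libraries, over the 333 genes tested. For Mir151 they were Mir99b (distance 0.18, 8023 and 5734 CPM), Mir411 (0.18, 8639 and 5552 CPM) and Mir191 (0.20, 7368 and 5703 CPM). Mir99b lies in an intron of Spaca6, and Mir411 belongs to the imprinted Dlk1-Dio3 region. For Mir28a they were Mir361 (0.24, 2414 and 1616 CPM), Mir17 (0.38, 2099 and 1813 CPM) and Mir382 (0.42, 2505 and 2395 CPM). Mir361 was also its neighbour among the host-gene microRNAs. For Mir708 they were Mir181d (0.34, 1336 and 919 CPM), Mir872 (0.44, 1341 and 708 CPM) and Mir337 (0.47, 1395 and 661 CPM). Mir872 lies in an intron of Ift74. With 2 libraries such likeness describes a level and 1 difference, and no gene here was tested for a shared pattern. Among the other 332 tested genes, 18 had a log2 library ratio within 0.1 of that of Mir151, Mir28a among them, 20 within 0.1 of that of Mir28a and 13 within 0.1 of that of Mir708.

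Reads of the members lay on the annotated strand, apart from a few of Mir708. Mir151 overlaps the antisense gene 1700085D07Rik and had 0 counts on the other strand in both libraries, which allows up to 0.00841% and 0.0285% of its reads in replicates 1 and 2. Mir28a likewise had 0, allowing up to 0.0244% and 0.0798%. The column that ignores strand held the same counts as the sense column for Mir151 and Mir28a.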

How the data were processed

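Raw counts per microRNA gene were deposited for each library, in 1 column that ignores strand and 1 for each strand, and the text deposited beside them names assembly mm10 and annotation M21. Which aligner and counter were run is not given in the sources used here. The column with the larger gene total was the sense column. Rows that name no gene (unmapped, multimapping, outside genes) were left out. In replicate 1 they held 26.4%, 29.8% and 7.16% of all reads, in replicate 2 they held 51.9%, 21.5% and 6.46%. All 2202 gene identifiers matched GENCODE M21.

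CPM, exact intervals and ratios were computed in Python 3.11.15 with SciPy 1.17.1. TMM factors and the exact test came from edgeR 4.0.16, and median-ratio factors from DESeq2 1.42.0. The binomial test was tested on simulated data with counting noise as the only error, so its behaviour under other variation between libraries was not tested. Hairpin GC content came from GENCODE transcripts, and mature strands from RefSeq. Named genes are the members, other miR-28 genes, the 3 nearest genes in level, and, of the host-gene list, the 3 highest and the neighbours of each member. Members and lists were chosen with earlier results of these data known. The binomial p-values cover counting error only.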

Additional observations from a re-analysis of the deposited data

Results flagged for a closer look

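Mir708 had reads on the strand opposite to its hairpin, in a column that none of the comparisons uses. There were 25 such counts in replicate 1 and 4 in replicate 2, both above the 3 counts that a count of 0 allows. They made up 0.33% of the reads on both strands in replicate 1, with an exact Clopper-Pearson interval of 0.214 to 0.487, and 0.221% in replicate 2, with 0.0603 to 0.565. No gene is annotated on that strand in GENCODE M21. Among 82 genes with at least 1000 sense counts in both libraries and no gene annotated on the other strand, 8 had any such count in replicate 1 and 6 in replicate 2, and the share of Mir708 was the second highest in each. The highest share was 5.52% in replicate 1 and 9.18% in replicate 2.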

How the results depend on the processing

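The levels of all 3 members moved by less than 1 SD with TMM library sizes, the strand-blind column or a total without the highest gene, and their order held under these and in each library alone. Divided by hairpin length, an alternative chosen after seeing the data, the log2 ratio of Mir151 to Mir28a was 1.86 in place of 1.52, and that of Mir28a to Mir708 was 1.18 in place of 0.83. The library ratios kept their direction and stayed past the binomial threshold with library size alone, DESeq2 factors, minimums of 5 and 50 counts or none, the strand-blind column and a hairpin GC correction. They ranged from -1.0015 to -0.65 for Mir151, -0.95 to -0.60 for Mir28a and -1.31 to -0.95 for Mir708. The edgeR exact test gave -0.83, -0.78 and -1.14 in that order, each with an adjusted p of 0.988, and called 2 genes in place of 260. Its dispersion came from the same libraries that it compared, so these missing calls decide nothing. The other settings called from 236 of 259 genes tested, at the minimum of 50 counts, to 299 of 749, without a minimum. The share called thus changed with the count minimum. Without a count minimum the median log2 ratio of all tested genes shifted by -0.17. With either library left out, the place of Mir708 among the host-gene microRNAs was 12 or 19 in place of 14, 19 being that without replicate 1. No paired analysis was possible because there is 1 group. Depth limits Mir28b and Mir28c, whose levels rest on 2 to 5 counts.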

Other observations

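The 6 bases GGAGCU, common to the seeds of miR-28a-5p, miR-708-5p and miR-28b, were found in 22 of 1738 mature strands of the RefSeq table (1.27%), searched on the mature strand only. In 5 of them the run began at base 2 or 3, as in the seeds of these 3 strands. The others of these 5 were miR-6938-5p and miR-12180-3p. Mir6938 had 0 counts in both libraries, and the gene of miR-12180-3p was not analysed here. Of the genes in that table with a count, those with this run in the seed were thus Mir28a, Mir708 and, at 5 and 4 counts, Mir28b. Mir151 and Mir28c had no entry in it, so their strands were not searched for this run.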
